A study of Oryza sativa Japonica Group and Oryza sativa Indica Group with 24 samples.

Results

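The genes described here are the rice catalase CAT-A and the ascorbate peroxidases APX1 to APX8. They were found by their symbol or synonym in the gene table. Of these 9 genes, 8 had at least 1 probe set in the array's annotation, and APX3 had none. The 8 genes were read by 13 probe sets: 3 for CAT-A, 4 for APX2 and 1 each for APX1, APX4, APX5, APX6, APX7 and APX8. They are 8 of 17905 annotated genes, and all 13 probe sets passed the filter on dim probe sets, by which 34355 of 57258 were tested. Where a gene has several probe sets, they are told apart by their brightness over the 24 arrays.

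RNA of rice crowns with their growing points, taken at panicle initiation, was measured on 24 Affymetrix arrays. Plants grown under salt stress were compared with unstressed plants in 4 sets, each with 3 salt arrays and 3 control arrays. One set was agami, a japonica line that the series text calls salt tolerant, and one was m103, a japonica line that it calls sensitive. The other 2 sets both carry the title ir29 and are labelled as Indica Group; here they are called the second and the first ir29-labelled set, by the numbers in their titles. The series text also names a tolerant indica line, ir63731, which no title carries, so neither ir29-labelled set is given a tolerance class here. Titles call the 3 arrays of a group biological replicates; the sources used here give no salt concentration, length of stress or number of plants per sample. If replicates were not grown separately, the p-values measure only the spread between these samples.

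Catalase and ascorbate peroxidase both remove hydrogen peroxide. Catalase works in peroxisomes, where glycolate oxidase and other oxidases release peroxide, and needs no reducing partner. Ascorbate peroxidase spends ascorbate to reduce peroxide to water, and monodehydroascorbate reductase regenerates the ascorbate. The rice family has cytosolic forms (APX1 and APX2), peroxisomal forms (APX3 and APX4) and forms of chloroplasts and mitochondria (APX5 to APX8). Salt stress raises peroxide in many plant tissues, and these enzymes are standard readouts of that stress.

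Values are scaled signals: probe set intensities after each array was brought to a trimmed mean of 500. Changes are log2 differences of scaled signal + 16, salt minus control unless another order is given, with their standard error (SE). They understate the change of dim probe sets. A probe set is said to have risen or fallen, or to be called, where limma's adjusted p was under 0.05 over all 34355 probe sets tested. In all, 9 arrays had been deposited on a lower scale (trimmed means of 58.8 to 116) than the other 15. They were 5 of the 6 m103 arrays and 4 of the 6 first ir29-labelled arrays, and they were rescaled. A 3′ over 5′ actin signal ratio, which rises as RNA is degraded, stood at 6.76 to 10.1 on the salt arrays of the second ir29-labelled set, against 4.11 to 7.37 on its control arrays. It was at most 6.72 in the other 3 sets. Replicate arrays correlated at 0.963 or more. Growing point markers were present (9 of 11 such genes tested, OSH1 among them), and leaf markers were present too (9 of 10 tested). Root markers (3 of 3 tested) and seed markers (2 of 5 tested) also gave signal. Of the root markers, 1 fell with salt in the second ir29-labelled set, where 8.83% of all probe sets tested were called. In m103 1 rose and 1 fell, beside 8.85%. Between agami and m103 controls 1 root marker was higher and 1 lower, beside 11.4% of all probe sets tested. In bulk tissue, fewer cells of a type and less RNA per cell cannot be told apart.

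CAT-A rose with salt in the first ir29-labelled set and was not called in the other 3 sets. In the first ir29-labelled set the brightest CAT-A probe set stood at 1614, 1308 and 1710 on the salt arrays, against 725, 695 and 292 on the control arrays. The lowest salt array was well above the highest control array. The log2 change was 1.51 ± 0.28 (SE, 3 arrays a group, limma adjusted p = 0.0015), or 2.84-fold. The second brightest read 1475, 1169 and 1633 on the salt arrays, against 762, 614 and 361 on the control arrays. The dimmest read 362, 450 and 441 on the salt arrays, against 162, 210 and 72.3 on the control arrays. Neither showed overlap between the groups, and their changes were 1.33 ± 0.31 (adjusted p = 0.011) and 1.50 ± 0.32 (adjusted p = 0.0051). Control replicate 3 was the lowest control array in all 3 probe sets. Without it the second probe set was no longer called (adjusted p = 0.086), and without salt replicate 3 it was also lost (adjusted p = 0.054). Using only the 4 arrays of this set that had been deposited on the lower scale, the 3 changes were 1.81, 1.53 and 1.73, all called. The summed signal of the leaf markers was 47570 to 53974 on the salt arrays and 50011 to 53836 on the control arrays of this set. Of 9 leaf markers tested 0 were called, beside 5.8% of all probe sets tested. Their median change was 0.22, with 2 below 0, against 0.0083 over all probe sets tested. The part of leaf tissue in the CAT-A change was not tested.

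In the second ir29-labelled set the brightest CAT-A probe set read 846, 1485 and 1360 on the salt arrays, against 493, 868 and 763 on the control arrays. Salt replicate 1 lay below the highest control array, so the groups overlapped. Replicate 1 was the lowest array in both the salt and the control group. The change was 0.78 ± 0.28 (adjusted p = 0.086), and the second brightest changed by 0.77 ± 0.31 (adjusted p = 0.13). Without salt replicate 1 both were called (adjusted p = 0.028 and 0.019). Without the 2 salt arrays of highest actin ratio, which leaves salt replicate 1 alone in its group and assumes that it varies like the other groups, the changes were 0.29 (adjusted p = 0.88) and 0.025 (adjusted p = 0.99). The dimmest gave 0.12 ± 0.32 (adjusted p = 0.89), so the CAT-A probe sets disagreed here in size. The difference between the salt effects of the second and first ir29-labelled sets was not called for any of them: it was −0.72 ± 0.40 (adjusted p = 0.35), −0.55 ± 0.44 (adjusted p = 0.56) and −1.38 ± 0.45 (adjusted p = 0.092).

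In agami the brightest CAT-A probe set read 248, 316 and 332 on the salt arrays, against 702, 424 and 387 on the control arrays. All salt arrays lay below all control arrays, yet the change of −0.68 ± 0.28 was not called (adjusted p = 0.29). The other CAT-A probe sets gave −0.48 ± 0.31 with overlapping arrays and −0.81 ± 0.32 with none. In m103, which had the brightest CAT-A signal of the study, the same probe set read 2869, 2710 and 2296 on the salt arrays, against 2793, 3011 and 3858 on the control arrays. The groups overlapped, and the changes of the 3 probe sets were −0.29, −0.21 and −0.20.

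The salt effect on CAT-A differed between the ir29-labelled and the japonica sets for 1 of its 3 probe sets. For the brightest the mean salt effect of the ir29-labelled sets exceeded that of agami and m103 by 1.63 ± 0.28 (limma adjusted p = 0.010). It was the 1 member called among 13 in that comparison, where 0.212% of all probe sets tested were called. The second minus first ir29-labelled and the agami minus m103 differences in salt effect called 0 of 13, beside 3.51% and 1.02% of all probe sets tested. At an unadjusted p under 0.05 they held 2 and 1 members, a threshold for which the share of all probe sets is not given. The other CAT-A probe sets gave 1.39 ± 0.31 (adjusted p = 0.064) and 1.31 ± 0.32 (adjusted p = 0.090). The second of these 3 probe sets crossed the threshold without first ir29-labelled control replicate 1 (adjusted p = 0.043), second ir29-labelled salt replicate 1 (adjusted p = 0.013) or m103 salt replicate 1 (adjusted p = 0.049). The agami and m103 effects did not differ past the threshold for any CAT-A probe set. The mean salt effect over the 4 sets was not called for CAT-A (0.33 ± 0.14, 0.35 ± 0.16 and 0.15 ± 0.16). Without agami control replicate 1 the brightest was called (adjusted p = 0.048), and without second ir29-labelled salt replicate 1 the 2 brighter ones were (adjusted p just under 0.05 and 0.030).

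**Figure D1:**
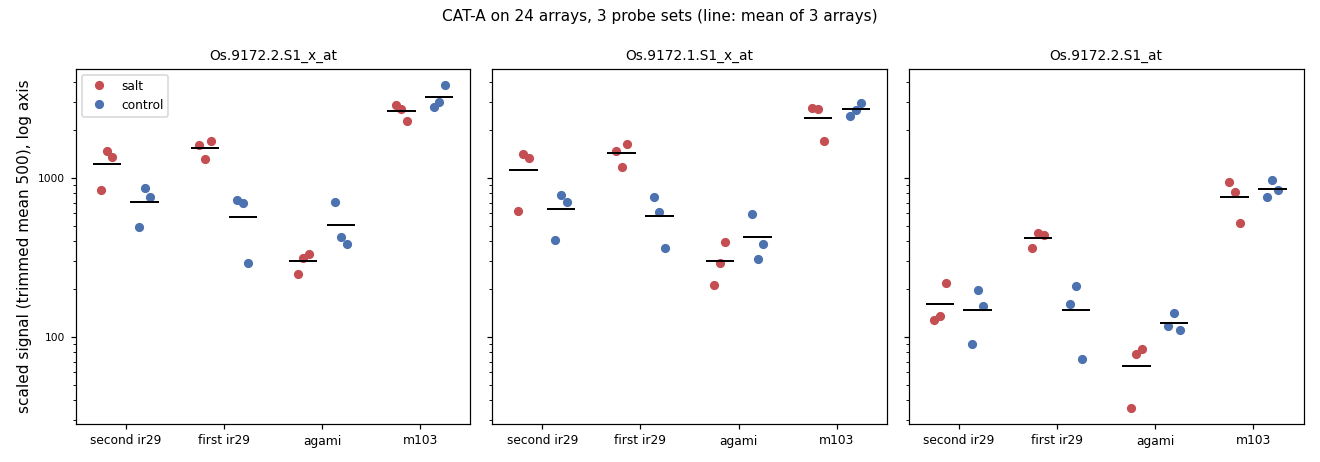
Scaled signal (log axis) of the 3 CAT-A probe sets, brightest to dimmest from left to right, on each of the 24 arrays, salt left of control within each set, with a line at the mean of 3 arrays. In the first ir29-labelled set all salt arrays sit above all control arrays in each panel, and the m103 arrays sit above all arrays of agami.

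The unstressed level of CAT-A separated the japonica lines. On control arrays the brightest CAT-A probe set averaged 504 ± 172 in agami and 3220 ± 562 in m103 (SD, n = 3 each). The agami minus m103 difference was −2.67 ± 0.28 (limma adjusted p = 2.1e-07), so agami stood 6.38-fold lower, with no overlap between arrays. The other probe sets gave −2.66 ± 0.31 and −2.65 ± 0.32 (adjusted p = 1.2e-06 and 1.8e-06), also without overlap. All m103 control arrays and no agami control array had been deposited on the lower scale. With the deposited scale as a block, which is estimated from the groups that hold both scales, the differences were −2.82, −2.71 and −3.16, all called. In the ordering of the 8 groups by mean signal of the brightest probe set, m103 control came first and m103 salt next, and their arrays overlapped. The first ir29-labelled salt group, the second ir29-labelled salt group, and the second and first ir29-labelled control groups followed, and the agami control and salt groups came last. In this probe set, separation of neighbours was complete only between m103 salt and the first ir29-labelled salt group, and between agami control and agami salt. In the second brightest the agami groups were not separate, and in the dimmest the first ir29-labelled salt group was also separate from the second.

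Leaf markers moved the same way as CAT-A between these control groups. Of 9 leaf marker genes tested, 6 were lower in agami and 0 higher, where 11.4% of all probe sets tested were called. Their median difference was −0.82, against 0.031 over all probe sets tested. RBCS, the small subunit of Rubisco, gave −2.27 ± 0.28 (adjusted p = 2.1e-06), and PORB, a protochlorophyllide reductase of chlorophyll synthesis, gave −1.18 ± 0.10 (adjusted p = 1.3e-08). The summed leaf marker signal was 36695 to 42297 on the agami control arrays and 50860 to 59404 on the m103 control arrays, and no leaf marker was at 0 on any array. The part of leaf tissue in the CAT-A difference was not tested.

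CAT-A was also lower on the control arrays of the ir29-labelled sets than on those of the japonica sets, by −1.03 ± 0.20, −0.85 ± 0.22 and −1.16 ± 0.23 (limma adjusted p = 0.00023, 0.0039 and 0.00028). That mean hides the spread within japonica: the means of the ir29-labelled controls lay between those of m103 and agami. The brightest probe set averaged 708 ± 193 in the second and 570.5 ± 242 in the first ir29-labelled set (SD, n = 3 each). Its arrays there went down to 493 and 292, so both sets overlapped the agami control arrays (387 to 702). The second minus first ir29-labelled control difference was 0.37 ± 0.28 (adjusted p = 0.46).

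Across the family, salt called few probe sets, and each of those called was higher under salt. Of 13 member probe sets, 1 rose in the second ir29-labelled set, where 4.41% of all probe sets tested were called higher and 8.83% in either direction. In the first ir29-labelled set 4 rose, beside 3.38% called higher and 5.8% in either direction. In agami 0 were called, beside 0.934% in either direction. In m103 2 rose, beside 4.17% called higher and 8.85% in either direction. Without changes to the processing or the arrays used, no member fell in any set. Under quantile normalization 1 probe set of APX2 did in the second ir29-labelled set. APX5 did in the first ir29-labelled set with the replicate number as a block and with some arrays left out. Member probe sets with an unadjusted limma p under 0.05 numbered 3, 6, 5 and 4 in the second and first ir29-labelled sets, agami and m103. The share of all probe sets at that threshold is not given, so no result is drawn from these counts. For the mean over the 4 sets, 3 of 13 rose, beside 9.16% of all probe sets called higher and 17.7% in either direction. In the first ir29-labelled set 3 of the 4 calls are probe sets of 1 gene, CAT-A. The median change of the 13 was 0.18, 0.12, −0.042 and 0.053 in the second and first ir29-labelled sets, agami and m103, against −0.026, 0.0083, −0.0036 and 0.016 over all probe sets tested. Arrays of salt and control did not overlap for 2 members in the second ir29-labelled set, 6 in the first, 4 in agami and 3 in m103, where 23%, 23.3%, 19.2% and 27.6% of all probe sets tested did not overlap.

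**Figure D2:**
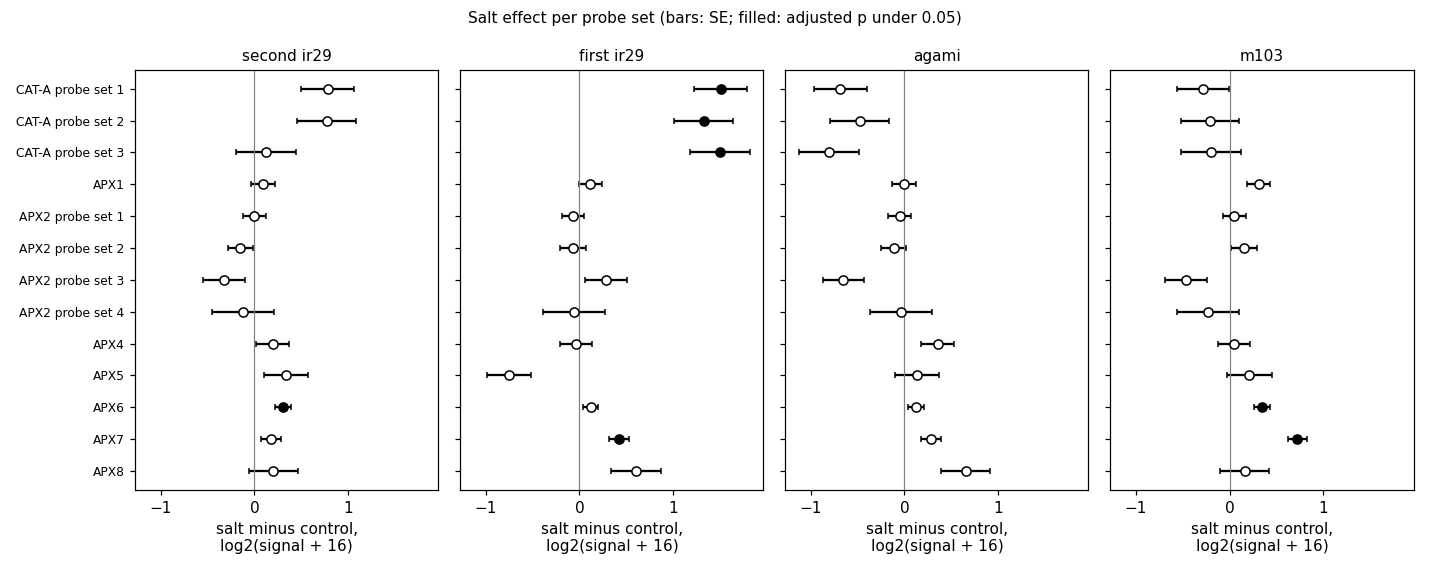
Salt minus control change (log2 of scaled signal + 16, with SE) of the 13 probe sets in each set of 3 salt and 3 control arrays. CAT-A lies above 1 in the first ir29-labelled set and below 0 in both japonica sets, while APX6 and APX7 lie above 0 in all 4 sets.

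The cytosolic ascorbate peroxidases APX1 and APX2 had no salt call in any set. Under quantile normalization APX1 was called higher in m103 (0.24, adjusted p = 0.039), and the second brightest APX2 probe set was called lower in the second ir29-labelled set (−0.32, adjusted p = 0.026). APX1 ranged from 20678 to 24457 on the second ir29-labelled salt arrays, against 19366 to 24798 on their controls. Its largest salt difference among the 4 sets was in m103, at 22439, 21185 and 21829 on the salt arrays, against 15829, 19288 and 17755 on the control arrays. Those groups did not overlap, and the change was 0.31 ± 0.12 (limma adjusted p = 0.14). In the other 3 sets APX1 changed by −0.0040 to 0.12, with overlapping arrays.

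APX2 has 4 probe sets, of which 2 were bright and 2 dim. The bright ones had group means of 17866 to 25055 and salt changes of −0.15 to 0.16, with overlapping arrays in every set. The third in brightness read 190, 181 and 209 on the agami salt arrays, against 291, 308 and 341 on the agami control arrays, a change of −0.65 ± 0.22 without overlap (adjusted p = 0.18). In m103 it changed by −0.47 ± 0.22 (adjusted p = 0.24), and in the second and first ir29-labelled sets by −0.32 ± 0.22 and 0.29 ± 0.22. Its mean over the 4 sets was −0.29 ± 0.11 and was not called (limma adjusted p = 0.077). That mean was called with a pseudocount of 64 (adjusted p = 0.041). It was also called without first ir29-labelled salt replicate 3 (0.021), second ir29-labelled salt replicate 2 (0.048) or m103 control replicate 2 (0.043). The dimmest had group means of 57.1 to 84.0 and was not called in any comparison.

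On control arrays the third APX2 probe set in brightness set the ir29-labelled sets apart from each other. It read 304, 394 and 405 in the second set and 61.4, 60.1 and 89.3 in the first. The groups were far apart, with a second minus first difference of 2.16 ± 0.22 (limma adjusted p = 1.5e-07), or 4.47-fold. The other 3 APX2 probe sets gave −0.10, 0.26 and 0.29 in the same comparison and were not called, so the probe sets of this gene disagree and no level of APX2 is drawn from this one. APX1 was higher on agami than on m103 control arrays by 0.40 ± 0.12 (adjusted p = 0.035), at 18333, 25737 and 26680 in agami and 15829, 19288 and 17755 in m103. These arrays overlapped, and the call was lost with the deposited scale as a block (0.28, adjusted p = 0.39) and on leaving out agami control replicate 2 or 3 or m103 control replicate 1 or 3 (adjusted p from 0.080 to 0.20). It was also lost with no filter (adjusted p = 0.063) and with no intensity trend (0.079).

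APX4, the peroxisomal form with a probe set, was not called in any of the 11 comparisons. Its group means ran from 792 in the first ir29-labelled salt group to 1197 in the m103 salt group. Salt changes were 0.19 ± 0.17, −0.036 ± 0.17, 0.35 ± 0.17 and 0.048 ± 0.17 in the second and first ir29-labelled sets, agami and m103, and salt and control arrays overlapped in each. On control arrays it read 991, 804 and 748 in agami and 1252, 1116 and 1102 in m103, with no overlap (−0.45 ± 0.17, adjusted p = 0.11). With the deposited scale as a block the difference was −0.20 (adjusted p = 0.72), and with only the arrays of the sets compared it was called (adjusted p = 0.048).

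Among the organelle forms, APX7 and APX6 rose under salt. APX7, a stromal form, read 1349, 1609 and 1406 on the m103 salt arrays, against 912, 835 and 867 on the m103 control arrays. The groups were widely separated, and the change was 0.73 ± 0.11 (limma adjusted p = 9.1e-05), or 1.65-fold. In the first ir29-labelled set APX7 read 1946, 1894 and 2020 on the salt arrays, against 1279, 1403 and 1700 on the control arrays, a change of 0.42 ± 0.11 (adjusted p = 0.017). That call was lost using only the 4 arrays deposited on the lower scale (0.42, adjusted p = 0.11), with only the arrays of the sets compared (adjusted p = 0.072), with median centring (adjusted p = 0.050), and without control replicate 1, control replicate 2 or salt replicate 3 (adjusted p from 0.069 to 0.11).

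In the second ir29-labelled set APX7 read 1570, 1562 and 1534 on the salt arrays, against 1375, 1270 and 1479 on the control arrays, and in agami 1226, 1234 and 1159 on the salt arrays, against 944, 911 and 1119 on the control arrays. Salt arrays were above control arrays in both sets, so APX7 showed no overlap in any of the 4 sets. The changes of 0.18 ± 0.11 (adjusted p = 0.35) and 0.28 ± 0.11 (adjusted p = 0.24) were not called. The mean over the 4 sets was 0.40 ± 0.053 (adjusted p = 1e-05), and no difference of its salt effect between sets passed the threshold (second minus first ir29-labelled −0.25 ± 0.15, agami minus m103 −0.44 ± 0.15, ir29-labelled minus japonica −0.20 ± 0.11).

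APX6 read 4574, 4694 and 4188 on the m103 salt arrays, against 3455, 3436 and 3688 on the m103 control arrays, a change of 0.34 ± 0.083 (limma adjusted p = 0.0092). Without m103 salt replicate 2 the adjusted p was 0.058, and with median centring it was 0.054. In the second ir29-labelled set it read 5655, 5967 and 5841 on the salt arrays, against 4663, 4788 and 4688 on the control arrays, a change of 0.30 ± 0.083 (adjusted p = 0.023). Neither set showed overlap. This second call was lost when control replicate 1 was left out (adjusted p = 0.078), and likewise for salt replicate 2 (0.10) and salt replicate 3 (0.057). It was also lost with only the arrays of the sets compared (adjusted p = 0.15), with median centring (0.066) and without the intensity trend (0.056). Without the 2 salt arrays of highest actin ratio, which leaves 1 salt array, the change was 0.26. The changes in the first ir29-labelled set and agami were 0.12 ± 0.083 and 0.13 ± 0.083, with overlapping arrays. The mean over the 4 sets was 0.22 ± 0.041 (adjusted p = 0.00048). The summed leaf marker signal was 48825 to 53892 on the second ir29-labelled salt arrays and 40678 to 51393 on their controls, with 1 of 9 leaf markers called (PORA, higher). In m103 it was 39928 to 66152 on the salt arrays and 50860 to 59404 on the control arrays, with 0 of 9 called. Over all probe sets tested, 8.83% were called in the second ir29-labelled set and 8.85% in m103. The median leaf marker change was 0.11 and 0.067 in these sets, with 3 and 4 of 9 below 0. The part of leaf tissue in the APX6 and APX7 changes was not tested. After the mean of each set was removed, APX6 and APX7 correlated at 0.77 over the 24 arrays, which share set and treatment.

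APX8, a thylakoid form, read 493, 388 and 465 on the first ir29-labelled salt arrays, against 319, 307 and 244 on their control arrays. The groups did not overlap, and the change was 0.61 ± 0.27 (adjusted p = 0.22). In agami it read 191, 273 and 231 on the salt arrays, against 208, 87.3 and 148 on the control arrays, a change of 0.65 ± 0.27 with overlap (adjusted p = 0.29). In the second ir29-labelled set and m103 the changes were 0.20 and 0.16. The mean over the 4 sets was 0.41 ± 0.13 (limma adjusted p = 0.036), and this call was lost on leaving out any of 10 of the 24 arrays, 1 at a time. It was also lost in 5 of 10 processing alternatives: the deposited scale block, median centring, no filter, no intensity trend (adjusted p from 0.051 to 0.055) and without the 2 arrays of highest actin ratio (0.11). On control arrays APX8 was lower in agami than in m103 by −0.93 ± 0.27 (adjusted p = 0.022), with 208, 87.3 and 148 in agami and 303, 378 and 194 in m103. These arrays overlapped. The call was lost without agami control replicate 2, m103 control replicate 1 or m103 control replicate 2 (adjusted p from 0.077 to 0.18). It was also lost with only the arrays of the sets compared (adjusted p = 0.062). With the deposited scale as a block the difference was −1.15 (adjusted p = 0.050, just over the threshold).

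APX5, whose gene is next to APX6 in the annotation, was dim in 1 set. On control arrays it read 935, 1015 and 1368 in the second ir29-labelled set and 80.5, 74.3 and 76.5 in the first. The second minus first difference was 3.57 ± 0.24 (limma adjusted p = 8.2e-11), or 11.9-fold on that scale, with no overlap. APX5 has 1 probe set, so the difference rests on that probe set alone. The agami and m103 control arrays read 850 to 934 and 602 to 748, so the first ir29-labelled set stood apart from the other 3. On the salt arrays of that set APX5 read 15.1, 71.8 and 45.6, all below its control arrays, a change of −0.75 ± 0.24 (adjusted p = 0.063). Without salt replicate 1, the lowest array, the change was −0.34 (adjusted p = 0.35). It was called without salt replicate 2 (adjusted p = 0.0044) and using only the 4 arrays deposited on the lower scale (−1.11, adjusted p = 0.013). The difference between the second and first ir29-labelled salt effects was 1.09 ± 0.33 (adjusted p = 0.070), and it was called without first ir29-labelled salt replicate 2 (adjusted p = 0.014), second ir29-labelled control replicate 3 (adjusted p = 0.046) or second ir29-labelled salt replicate 1 (adjusted p = 0.049). Without first ir29-labelled salt replicate 1 that difference was 0.68 (adjusted p = 0.12). In the second ir29-labelled set, agami and m103 the salt changes were 0.34, 0.13 and 0.21, with overlapping arrays.

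**Figure D3:**
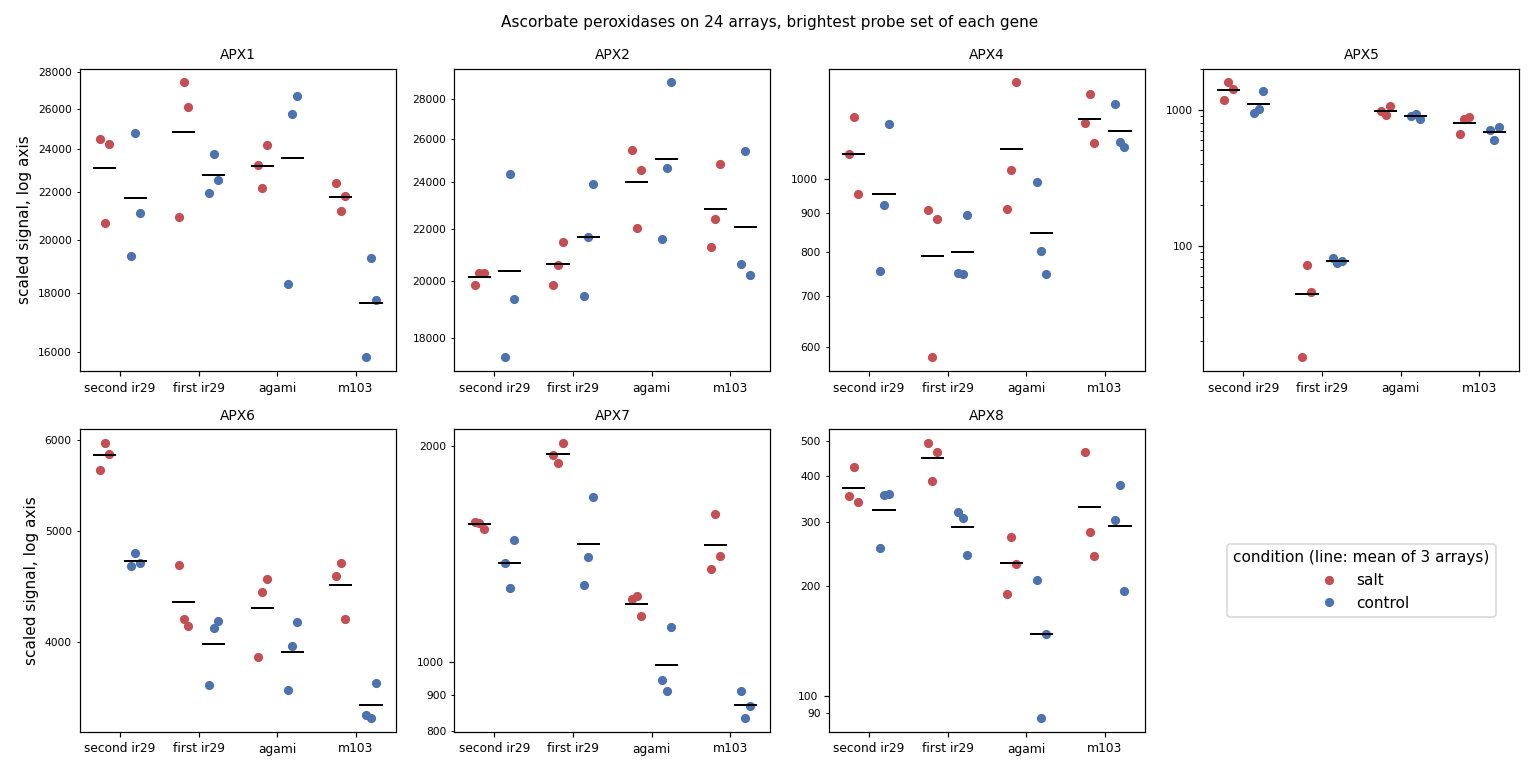
Scaled signal (log axis) of the brightest probe set of each ascorbate peroxidase on the 24 arrays, salt left of control in each set, with a line at the mean of 3 arrays. APX7 salt arrays lie above the control arrays in all 4 sets, and APX5 is at 80.5 or below in the first ir29-labelled set and at 602 or above elsewhere.

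Unstressed groups were compared in the same way. Between agami and m103 controls 1 of 13 was higher (APX1) and 4 were lower (3 of CAT-A and APX8), where 11.4% of all probe sets tested were called. Between the second and first ir29-labelled controls 2 of 13 were higher (APX5 and 1 probe set of APX2) and 0 lower, beside 13.6%. Between the ir29-labelled and japonica controls 3 were higher and 5 lower, beside 32%. The higher ones were APX7 (0.60 ± 0.075, limma adjusted p = 8.6e-07), APX6 (0.22 ± 0.059, adjusted p = 0.0049) and APX8 (0.57 ± 0.19, adjusted p = 0.023, with adjusted p of 0.052 to 0.087 on leaving out any of 5 of the 12 control arrays). The lower ones were the 3 of CAT-A, APX5 (−1.31 ± 0.17, adjusted p = 1.1e-06) and the disagreeing APX2 probe set (−0.72 ± 0.16, adjusted p = 0.00091). The APX5 value is an average of an ir29-labelled pair that differs by 11.9-fold. Centring arrays on their median in place of the trimmed mean shifted these last 2 comparisons by 0.15 and 0.16 and turned the share of higher calls over all probe sets to 74.6% and 69.3%, against 50.1% and 49.8%.

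**Figure D4:**
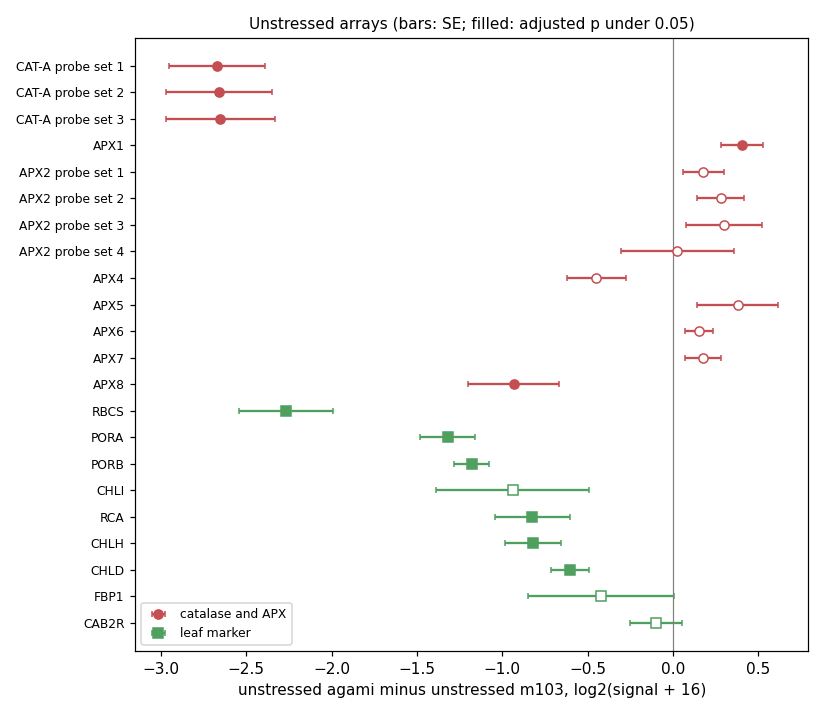
Agami minus m103 difference on control arrays (log2 of scaled signal + 16, with SE, 3 arrays a group) for the 13 members and the leaf markers. The 3 CAT-A probe sets lie near −2.7, and all 9 leaf markers tested lie below 0.

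Of the other genes of peroxide and superoxide handling in fixed lists, 18 were tested. Under salt 2 rose and 1 fell in the second ir29-labelled set, 1 rose in the first, 0 were called in agami, and 2 rose and 1 fell in m103, beside 8.83%, 5.8%, 0.934% and 8.85% of all probe sets tested. GLO5, a glycolate oxidase by its symbol, rose in m103, at 657 to 916 on the salt arrays, against 335 to 360 on the control arrays (1.15 ± 0.15, limma adjusted p = 2e-05). It also rose in the first ir29-labelled set, at 689 to 739 on the salt arrays, against 370 to 466 on the control arrays (0.75 ± 0.15, adjusted p = 0.0026). These are the sets in which APX7 was called, though no difference of the APX7 salt effect between sets was. A link between these genes was not tested. The agami effect on GLO5 was smaller than the m103 effect by −0.97 ± 0.21 (adjusted p = 0.023). Of the same 18 genes, 4 rose and 1 fell for the mean over the 4 sets, beside 17.7% of all probe sets tested. Between ir29-labelled and japonica controls 8 were higher and 2 lower, beside 32%. The second minus first ir29-labelled difference in salt effect and the agami minus m103 controls each had 1 lower, beside 3.51% and 11.4%. Genes called only in these comparisons are not named.

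MDAR5, a monodehydroascorbate reductase, rose in the second ir29-labelled set, at 4595 to 5369 on the salt arrays, against 2994 to 3596 on the control arrays (0.55 ± 0.096, adjusted p = 0.0013), and in m103 (0.45 ± 0.096, adjusted p = 0.0034). Those are the sets in which APX6 was called, though no difference of the APX6 salt effect between sets was. A link between these genes was not tested. PRXIIF, a mitochondrial peroxiredoxin, rose in the second ir29-labelled set (0.41 ± 0.12, adjusted p = 0.032). AOX1A, the alternative oxidase of mitochondria, fell there (−1.05 ± 0.31, adjusted p = 0.037), and RBOHB, an NADPH oxidase that makes superoxide, fell in m103 (−0.50 ± 0.12, adjusted p = 0.0071). AOX1A was dim, with means of 73.5 on the salt and 162 on the control arrays of the second ir29-labelled set. Dependence on the processing and on single arrays is given for the members only, not for these genes or GLO5. Salt calls of that set over all probe sets tested numbered 3034. They ranged from 179 (only the arrays of the sets compared) to 3750 (without salt replicate 1). The other catalase with a probe set, CAT-B, was not called for salt in any set. Its group means ran from 7176 in m103 control to 10682 in the first ir29-labelled salt group; levels of different probe sets are not compared.

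The arrays' patterns most like each salt-called member were ranked by Pearson's r over the 24 arrays with set means removed. For CAT-A they were LOC4341667 (r = 0.89), LOC4334728 (0.82) and the homeobox gene OSH45 (0.79). For APX6 they were LOC4336317, LOC4332596 and LOC4336329 (r from 0.89 to 0.92), and for APX7 LOC4340083, LOC4343216 and LOC4347103 (0.91 to 0.92). For APX8 they were LOC4343340 (0.83), LOC4332649 (0.78) and CPX (0.76). These values describe arrays that share treatment and scale, and were picked as the highest of all annotated probe sets tested.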

How the data were processed

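RNA of 24 samples was hybridised to Affymetrix rice arrays. The deposited values are linear probe set intensities, made by the authors (the submitters' processing notes name GCOS 1.2); the sources used here do not say which normalization was set. All 57381 probe sets were read, 123 control probe sets were left out, and each array was scaled so that its mean without the lowest and highest 2% was 500. Values were analysed as log2(scaled signal + 16). Probe sets at or below the 40th percentile of mean log2 value (a scaled signal of 27.9) were not tested. Limma 3.58.1 in R 4.3.3 (lmFit, eBayes with trend) fitted 8 group means over 24 arrays, and 11 two-sided comparisons were adjusted by Benjamini-Hochberg over 34355 probe sets each, with 0.05 as threshold. The code was tested on simulated data. The number of arrays limits precision. Alternatives were the scaling, pseudocount, filter, trend, arrays fitted, deposited scale or replicate number as a block, and each array left out.

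Groups come from sample titles; a description field calls all samples unstressed, and the treatment field goes with the titles. Genes were named by the array annotation and updated through RefSeq. In all, 22436 probe sets had 1 gene, 95 several and 34850 none. For other genes the brightest probe set was used. All members are named. Other genes of peroxide and superoxide handling are named where called for salt in a single set, and likeness takes 3 genes per member. Members and lists were chosen with earlier results of these data known. RCN1 was dropped from the growing point list because the table gives that name to a transporter. Probe sets ending in _x_at may bind related sequences. Whether a probe set binds the transcripts of each line alike was not tested, so differences between lines are differences in signal. Sequences and promoter motifs are not analysed here.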

Additional observations from a re-analysis of the deposited data

Results flagged for a closer look

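The salt effect on the brightest CAT-A probe set differed between the ir29-labelled and the japonica sets by 1.63 ± 0.28 on the log2 scale (limma adjusted p = 0.010), and is given here because the difference itself passed the test. The salt changes behind it were 0.78 in the second and 1.51 in the first ir29-labelled set, against −0.68 and −0.29 in agami and m103. Without the 2 salt arrays of highest actin ratio, both of the second ir29-labelled set, its 0.78 became 0.29 (adjusted p = 0.88), and the difference became 1.38 (adjusted p = 0.048). The call held in all 10 alternatives (adjusted p from 0.0061 to 0.049) and on leaving out each of the 24 arrays (0.0044 to 0.029). Subspecies and line cannot be told apart in this design.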

How the results depend on the processing

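Of 143 member changes (13 probe sets, 11 comparisons), 26 were called, and 18 of these stayed called under every alternative and every array left out. Of 117 not called, 102 were never called. No called change reversed its sign. Calls counted over the 13 members moved as follows. With median centring, the second ir29-labelled salt count was 0, m103 salt 1, and the second minus first ir29-labelled control count 4. In the second ir29-labelled set the salt count was also 0 without the intensity trend, with only the arrays of the sets compared, and without the 2 arrays of highest actin ratio (an alternative chosen after seeing the data), and 2 with quantile normalization. With the deposited scale as a block, the agami minus m103 control count was 3, as APX1 and APX8 were lost. With the replicate block, the difference between second and first ir29-labelled salt effects had a count of 1 (APX5, adjusted p = 0.048), and other member counts stayed within 1.5 times. That block also called the APX5 salt change of the first ir29-labelled set (adjusted p = 0.041). Same-numbered arrays deviated together little, with correlations within sets from −0.050 to 0.20. Most were above 0, and the highest was for replicate 1 of the second ir29-labelled set. The titles give no pairing, so the number is not used as a pairing. Leaving out 1 array gave 3 to 5 for the agami minus m103 controls, 7 to 8 for ir29-labelled minus japonica controls, 2 to 2 for second minus first ir29-labelled controls, 2 to 5 for mean salt, 0 to 3 for second and 2 to 5 for first ir29-labelled salt, 0 to 0 for agami, 1 to 2 for m103, 0 to 1 for the second minus first difference, 0 to 0 for agami minus m103 and 1 to 2 for ir29-labelled minus japonica. The mean salt call of APX8 was lost without first ir29-labelled control 3, salt 1 or salt 3, second ir29-labelled control 1 or salt 2, agami control 2, salt 2 or salt 3, or m103 control 3 or salt 1. Over all probe sets tested, counts of calls that moved by over 1.5 times were, for agami salt, 321 against 129 (median centring), 200 (no filter), 119 (no trend), 213 (own sets) and 571 (replicate block); for first ir29-labelled salt, 1993 against 988 (arrays of the lower scale); for second ir29-labelled salt, 3034 against 1908 (median centring), 179 (own sets) and 380 (without the 2 actin arrays); for agami minus m103 salt effects, 349 against 180 (median centring) and 131 (no trend); for second minus first, 1205 against 615, 802, 625, 575 and 334 (median centring, no filter, no trend, own sets, without the 2 actin arrays); for ir29-labelled minus japonica, 73 against 36 (no trend), 180 (replicate block) and 135 (without the 2 actin arrays); and for agami minus m103 controls, 3915 against 2563 (deposited scale block). Leaving out 1 array moved these counts to 77 to 370 for agami salt, 928 to 3750 for second and 1337 to 1542 for first ir29-labelled salt, 1756 to 2579 for m103 salt (3039 with all arrays), 135 to 755 for agami minus m103, 539 to 1836 for second minus first and 44 to 146 for ir29-labelled minus japonica. Where a cause is not given by the construction, the cause was not tested. Dim probe sets (APX5 in the first ir29-labelled set, 2 of APX2) have the least precise values.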
